A study of Mus musculus with 87 samples.

Results

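Mouse morulae that had been injected as zygotes with antisense oligonucleotides (ASOs) against Obox4 and Dux were compared with morulae injected with a scramble ASO. The comparison holds 4 of the 87 samples of the series, 2 in each group, chosen by their column names in the morula count tables. The embryos were wild type, on a B6D2F1 background, made by mating BDF1 females with BDF1 males. At the PN3 stage, the male pronucleus of each zygote received either 40 µM scramble ASO or 40 µM of an equimolar mix of the anti-Dux and anti-Obox4 ASOs. Cumulus cells had been removed with hyaluronidase, and the zona before lysis. The libraries were made with a kit that keeps the strand of the RNA. According to the study, most double knockdown embryos degenerated or arrested early, and those described at this stage were the minority with morula-like morphology. The double knockdown morulae were thus a selected part of the injected embryos, and the part of this in the differences was not tested. The number of morulae in a library and their collection time were not given in the sources used here. Whether the libraries came from separate injection days was not given either. The spread behind the p-values is therefore that of these 4 samples alone and may be technical. The libraries are called DKD 1, DKD 2, scramble 1 and scramble 2 after their labels.

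In the mouse, the embryo's own genome is switched on in the main at the 2-cell (2C) stage. DUX, a double homeobox factor encoded in a repeat array, activates a set of genes used briefly at that stage, among them the Zscan4 cluster, and the endogenous retrovirus MERVL with its LTR promoter MT2_Mm. OBOX4 belongs to the oocyte-specific homeobox family, whose copies lie in one cluster on chromosome 7. By the morula stage this 2C programme has normally been shut off, cells compact and polarise, and factors such as CDX2 and NANOG begin to separate the outer trophectoderm from the inner cells.

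The ASOs are printed here because they define the groups, and because their match to each annotated copy bears on how the knockdown can be read. Each is 20 bases long, with 5 2′-MOE-modified bases at either end and a gap of 10 DNA bases, shown in capitals, which RNase H uses to cut the paired RNA.
ASO_scramble: agcgcGGGTATTGAAccagg
ASO_Dux: gattcCTGCGGTTCTgaaac
ASO_Obox4: acttgATTGCAGTGGacgtg
The scramble ASO had 0 exact matches in the GRCm38 genome on either strand. The target of the anti-Dux ASO was found at 2 places, both exonic and on the minus strand, in Duxf3 at chr10:58232462-58232481 and in AW822073 at chr10:58224783-58224802. The target of the anti-Obox4 ASO was found at 11 places on chromosome 7, from chr7:15139682-15139701 to chr7:15589788-15589807. Each of these lay in an exon of an annotated Obox4 copy, and 3 of them also lay within an intron of Obox1 or Obox3. Obox4-ps35, the copy with most of the uniquely mapped reads in these libraries, held no exact match.

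DKD 2 held more RNA of both targets than scramble, while in DKD 1 the picture depended on the copy. The 11 Obox4 copies with an exact ASO site had 0 reads that map to a single place in DKD 1, 84 in DKD 2, 4 in scramble 1 and 0 in scramble 2, where a count of 0 allows up to 3 counts. The second table, in which reads with several places were split into fractions, gave these copies 6.13, 686.3, 41.12 and 23.02 counts in the same order. Scaled to library size and composition (CPM, read counts divided by the TMM-scaled library size), these were 0.08721, 10.5, 0.4399 and 0.351. The copies that the ASO matches were thus lowest in DKD 1, on few reads, and highest in DKD 2. In 2C-embryos, in a table normalised separately, they were at 0.2034 and 0.3934 CPM of unique reads in the double knockdown libraries and at 4.681 and 9.082 CPM in the scramble libraries.

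Obox4-ps35, with no exact match, was higher in both DKD-labelled libraries, at 253, 298, 17 and 9 unique counts (3.602, 4.573, 0.182 and 0.1373 CPM) in DKD 1, DKD 2, scramble 1 and scramble 2. Its log2 fold change was 4.66 ± 0.53 (SE, n = 2 per group, edgeR adjusted p = 0.227), and DESeq2 called it higher. It carried the sum over all 39 annotated Obox4 copies in DKD 1, which was 263, 517, 30 and 23 unique counts (3.745, 7.933, 0.3211 and 0.3509 CPM). Without it, the other 38 copies had 10, 219, 13 and 14 unique counts, and 21.59, 1089, 64.79 and 43.78 with shared reads split. In 2C-embryos Obox4-ps35 was at 42.0 and 39.11 CPM in the double knockdown libraries and at 56.23 and 58.4 CPM in the scramble libraries.

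Duxf3, the annotated Dux copy, had 20, 391, 14 and 6 unique counts, or 0.2848, 5.999, 0.1499 and 0.09154 CPM, and with shared reads split 0.7579, 20.55, 0.2282 and 0.2993 CPM. AW822073, which holds the other anti-Dux site, had 15, 1195, 23 and 33 unique counts. With shared reads split it was at 0.4221, 27.45, 0.3281 and 0.6729 CPM. Both were high in DKD 2, and in DKD 1 Duxf3 was above both scramble libraries. AW822073 in DKD 1 was below both by unique counts, but between them with shared reads split. In 2C-embryos Duxf3 was at 3.864 and 2.918 CPM in the double knockdown libraries and at 6.485 and 7.685 CPM in the scramble libraries. For both targets, DKD 2 was thus above scramble. With shared reads split, DKD 1 was below scramble for the matched Obox4 copies but not for Duxf3. The labels give the ASO injected into the zygote, not the level of its target RNA in the morula. The libraries are therefore named by their labels, and every direction below refers to the labels.

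Reads assigned to genes numbered 69867403 in DKD 1, 53573946 in DKD 2, 104864947 in scramble 1 and 71707441 in scramble 2. Morula markers were abundant in each library: the 11 markers summed to between 1622 and 2393 CPM, with Pou5f1, the core pluripotency factor OCT4, at 477.6 and 217.2 CPM in DKD 1 and DKD 2 and 586.5 and 567.4 CPM in the scramble libraries. Markers of cumulus or granulosa cells (6 genes), sperm (4), fibroblasts (4) and blood (4) summed to at most 4.971 CPM in any library, with DKD 2 the highest for each but sperm. Of these, Tnp1 and Hbb-bs had 0 counts in all 4 libraries. Wider lists of the same cell types summed to at most 15.37 CPM (cumulus and granulosa), 19.24 (fibroblast), 7.519 (blood) and 0.9824 (sperm) over all their members, tested or not.

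The 2 DKD-labelled libraries differed from each other far more than the scramble libraries did. Among the 22142 genes tested, 133 (0.601%) differed at least 2-fold between the scramble libraries and 4029 (18.2%) between DKD 1 and DKD 2, on a scale of log2(CPM + 0.5). DKD 1 stood nearer to the scramble libraries, from which 1377 and 1557 genes differed at least 2-fold, than to DKD 2. DKD 2 differed from the scramble libraries in 5887 and 6057 genes. The Spearman rank correlation over the same genes, which share libraries and are not independent, was 0.977 between the scramble libraries, 0.919 between the DKD-labelled ones, 0.952 and 0.947 for DKD 1 and 0.889 and 0.885 for DKD 2 against scramble. Repeats took 19.6% of all counted reads in DKD 2 and between 10.3% and 11.5% in the other 3 libraries.

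**Figure D1:**
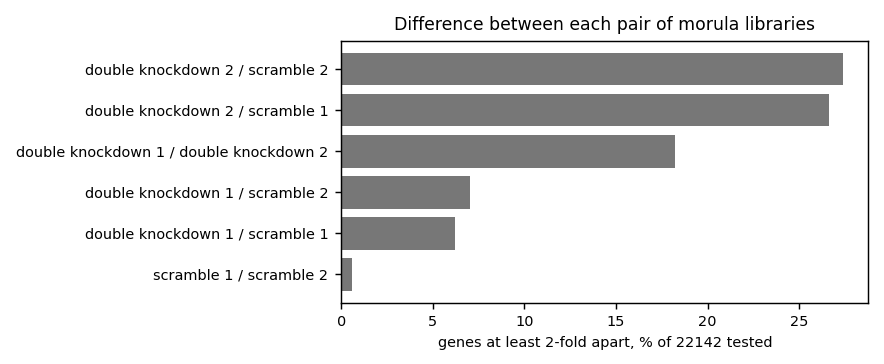
Share of the 22142 tested genes that differed at least 2-fold between each pair of morula libraries (x axis, percent), with 1 bar for each of the 6 pairs. The scramble pair is at 0.601%, the pair of libraries labelled double knockdown at 18.2%, and the pairs of DKD 2 with scramble reach 27.4%.

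DKD 2 held transcripts of the 2C stage that were near 0 in DKD 1 and in scramble morulae. The 6 markers of 2-cell embryos summed to 4.1, 261.2, 4.046 and 7.293 CPM in DKD 1, DKD 2, scramble 1 and scramble 2. Zfp352, a zinc finger gene that is read from a 2C promoter, was at 2.563, 104.7, 1.07 and 3.051 CPM. Zscan4d, a member of the telomere-linked Zscan4 cluster, was at 0.1424, 31.72, 0.1927 and 0.4882 CPM. In both, DKD 2 alone was high. Zscan4e had 4132 counts in DKD 2 and none in DKD 1, and was at least 1490-fold higher there when DKD 1 is set to a floor of 3 counts per library. Because the Zscan4 copies are close in sequence, their unique counts are uncertain. With shared reads split into fractions, the 6 copies together were at 0.3934, 550.0, 1.192 and 3.245 CPM, so the contrast does not rest on which copy a read was given to. The deubiquitinase gene Usp17le was at 0.05695, 32.91, 0.7707 and 1.022 CPM, and Tcstv3 at 1.338, 11.66, 2.012 and 2.548 CPM.

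**Figure D2:**
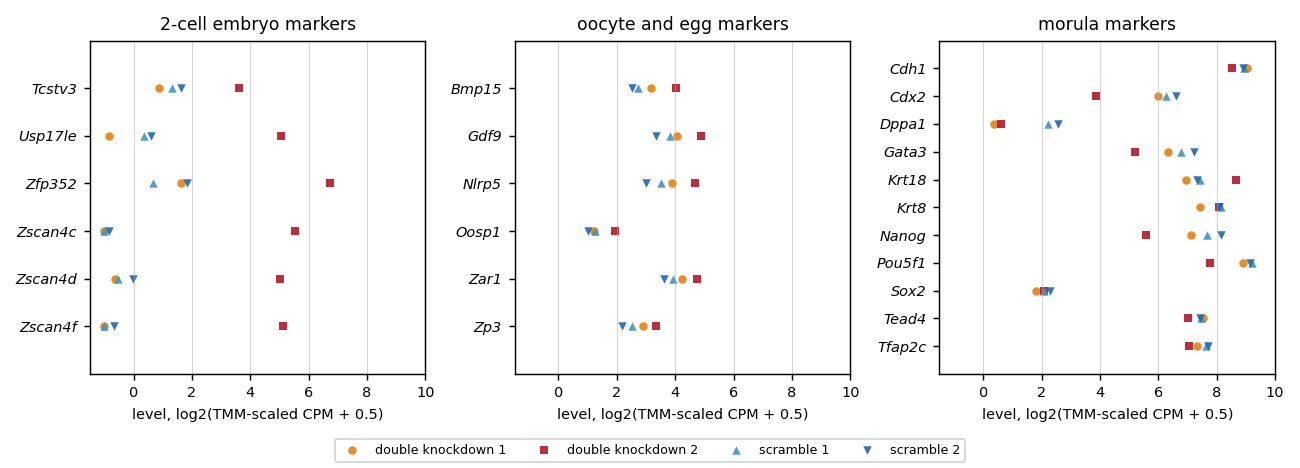
Level of each marker gene of 2-cell embryos, oocytes and eggs, and morulae in the 4 morula libraries, as log2(TMM-scaled CPM + 0.5) on the x axis with 1 symbol per library. DKD 2 stands apart for each of the 6 2-cell markers and is the highest library for each of the 6 oocyte markers, while Cdx2, Gata3 and Nanog are lowest in it.

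Several transcription factors of the first lineages were lowest in DKD 2, though not all. In the pluripotency list, 10 of 27 tested members were at least 2-fold lower in DKD 2 than in DKD 1 and 0 higher, in the trophectoderm list 6 of 21 lower and 3 higher, and in the primitive endoderm list 6 of 20 lower and 2 higher, beside 6.54% and 11.7% of all genes. Cdx2, the trophectoderm factor, was at 62.19 CPM in DKD 1, 13.93 in DKD 2, and 76.72 and 96.84 in scramble morulae. Nanog, the epiblast factor, was at 137.5, 47.29, 202.7 and 284.6 CPM, and Tfcp2l1, a naive pluripotency factor, at 640.7, 135.4, 1027 and 1198 CPM. For all 3, both DKD-labelled libraries were below both scramble libraries, with DKD 1 the nearer. Gata6, the primitive endoderm factor, was at 242.9, 102.2, 409.8 and 348.2 CPM. Krt18, a keratin of the outer epithelium, went the other way, at 124.2, 407.4, 173.3 and 160.8 CPM, and was at least 2-fold higher in DKD 2 than in any other library. Tead4, the transcription factor upstream of Cdx2, was at 185.8, 129.2, 173.5 and 169.4 CPM, with scramble between the DKD-labelled libraries. Id2, a helix-loop-helix protein of the trophectoderm list, was at 12.83, 48.52, 10.73 and 5.95 CPM, highest in DKD 2. These are RNA levels of pooled embryos, in which fewer cells of a type and less RNA per cell cannot be told apart.

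By a rule of size, the 10 genes with the largest excess of DKD 2 over DKD 1 (mean of at least 10 CPM, scramble libraries within 1.5-fold) were Zscan4a, Tmem92, Rhox5, Gdap1, Tmem132c, Btg4, Zfp560, Mllt3, Ppl and Zbtb33. Btg4, an adaptor that brings the deadenylase to maternal mRNA, was at 4.3, 27.71, 4.731 and 5.813 CPM. Rhox5, a homeobox gene on the X chromosome, was at 1.054, 24.3, 9.73 and 14.13 CPM, with DKD 1 the lowest library and DKD 2 the highest. Mllt3 was at 18.05, 94.78, 5.566 and 4.333 CPM, with DKD 1 also above scramble. In the other direction the rule gave Rnd3, Pros1, Eif2s3y, Ddx3y, H60b, Barx2, Nudt12, Nono, Ceacam10 and Creg1. Rnd3 was at 58.3, 5.769, 59.14 and 72.01 CPM, and DKD 2 alone was low. Nono, an X-linked RNA-binding protein of paraspeckles, was at 152.7, 24.98, 273 and 295.3 CPM. Eif2s3y and Ddx3y are on the Y chromosome, and Ddx3y was at 69.68, 10.16, 55.67 and 41.09 CPM. Xist, the RNA that coats the inactive X chromosome in female cells, was at 36.02, 147, 260.2 and 498.7 CPM, below scramble in both DKD-labelled libraries. The sex of the pooled embryos is not in the labels, and its part in these differences was not tested.

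The genes that differed between DKD 1 and DKD 2 were set beside the difference between stages. Of the 2580 genes (11.7%) at least 2-fold higher in DKD 2 than in DKD 1, 51.4% (1327) were at least 2-fold higher in scramble 2C-embryos than in scramble morulae, a share that was 24% over all tested genes. Of the 1449 genes (6.54%) at least 2-fold lower in DKD 2, 61.6% (892) were at least 2-fold lower in scramble 2C-embryos, against 28.6% over all tested genes. The 2C and morula tables were normalised separately. The scramble morulae took part in choosing these genes only through the filter on low counts and the scaling. The median scramble morula level was 0.604 CPM in the higher genes, 7.92 CPM in the lower genes and 2.33 CPM in all tested genes. The part of this in the shares was not tested.

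Across both DKD-labelled libraries, no gene passed the test. With edgeR's quasi-likelihood test, 0 of 22142 genes (0.0% called in either direction) met the limits set for a call (adjusted p up to 0.01 by Benjamini-Hochberg, and a log2 fold change of 1 or more either way), the smallest adjusted p being 0.227. At an unadjusted p under 0.05 there were 3941 genes. DESeq2's Wald test called 640 genes higher (2.89%) and 150 lower (0.677%) at the same thresholds. A joint edgeR fit that took the spread also from 10 2C-embryo libraries called 1032 of the tested genes higher (4.66%) and 432 lower (1.95%). Without DKD 1 the edgeR test called 5790 genes and without DKD 2 it called 907, with the lone library assumed to vary like the others.

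Because the test made no call, genes are described by whether the groups stood apart, a criterion chosen after the data were seen. In 483 genes (2.18%) both DKD-labelled libraries were at least 2-fold above both scramble libraries, and in 122 (0.551%) at least 2-fold below. Groups that merely did not overlap were far more common, at 6400 genes higher (28.9%) and 6305 lower (28.5%). Just inside the limit were Ttc22 and Armc7, and just outside it Rbbp6 and Zfp428. Relative to library size alone, with no correction for composition, the counts were 681 higher and 53 lower, since that scaling moves the median of all genes by 0.3 on the log2 scale towards the DKD-labelled libraries.

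Among genes whose groups did not overlap, 12 higher and 12 lower ones were taken by smallest p. Msx1, a homeobox repressor downstream of BMP signals (chr5:37820485-37824583, minus strand), was at 10.31 CPM in DKD 1, 10.77 in DKD 2, 0.1499 in scramble 1 and 0.09154 in scramble 2. The groups were far apart and the DKD-labelled libraries close together, and the log2 fold change was 6.41 ± 0.47 (SE, n = 2 per group, edgeR adjusted p = 0.227). Bmp4, a ligand that induces Msx1 in other tissues, was at 5.097, 6.997, 0.3425 and 0.1831 CPM. Klf17, a Krüppel-like factor abundant in oocytes and 2C-embryos (chr4:117757836-117765648, minus strand), was at 84.89, 84.3, 21.37 and 15.67 CPM, with a log2 fold change of 2.19 ± 0.22 (edgeR adjusted p = 0.227). Unlike the Zscan4 genes, Msx1, Bmp4 and Klf17 were at similar levels in DKD 1 and DKD 2. Chd2, a chromatin remodeller (chr7:73426638-73541830, minus strand), was at 153.7, 306.7, 20.62 and 18.16 CPM. Tex101, a surface protein of germ cells, was at 19.39, 45.1, 0.4924 and 0.2746 CPM. In these the DKD-labelled libraries differed from each other, yet the lower of them was still far above scramble. Pkd1, which encodes the membrane protein polycystin-1, was at 73.6, 110.4, 14.28 and 16.16 CPM, and Cep250, a protein that links centrosomes, at 102.7, 126.7, 38.57 and 37.29 CPM. The others named by the rule, Atp1b2, Apc2, Papolb, Serpinf2, Dlg4 and Lat, had log2 fold changes from 2.61 (Apc2) to 3.84 (Lat), and were each at most 3.447 CPM in scramble morulae.

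Of the 12 lower genes, Xbp1, the transcription factor of the unfolded protein response (chr11:5520659-5525893, plus strand), was at 5.026 CPM in DKD 1, 4.619 in DKD 2, 25.35 in scramble 1 and 36.94 in scramble 2. The DKD-labelled libraries were again close together, and the log2 fold change was -2.69 ± 0.29 (SE, n = 2 per group, edgeR adjusted p = 0.227). Epas1, the hypoxia factor HIF-2α, was at 251.9, 195.2, 566.8 and 648.6 CPM. Slc25a5, an X-linked carrier that exchanges ADP and ATP across the inner mitochondrial membrane, was at 195.1, 145.9, 429.3 and 465.9 CPM. Arpc5, a subunit of the actin-nucleating Arp2/3 complex, was at 33.4, 28.02, 73.59 and 74.17 CPM. Both scramble libraries lay at least 2-fold above both DKD-labelled libraries in each of these. Nectin1, an adhesion molecule of cell junctions, was at 20.97, 13.09, 69.91 and 63.7 CPM, and Rnd1 at 9.525, 9.759, 29.6 and 25.66 CPM. The kinases Map2k6 and Nlk were at 3.389, 3.652, 12.49 and 12.43 CPM, and at 30.9, 32.58, 66.24 and 69.88 CPM. Igsf1 had 0 counts in both DKD-labelled libraries and 1.37 and 1.282 CPM in scramble, and was thus at least 27.9-fold lower against a floor of 3 counts per library. Zfp990, Xkr9 and Slc5a11 had log2 fold changes of -1.45, -2.34 and -1.55.

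**Figure D3:**
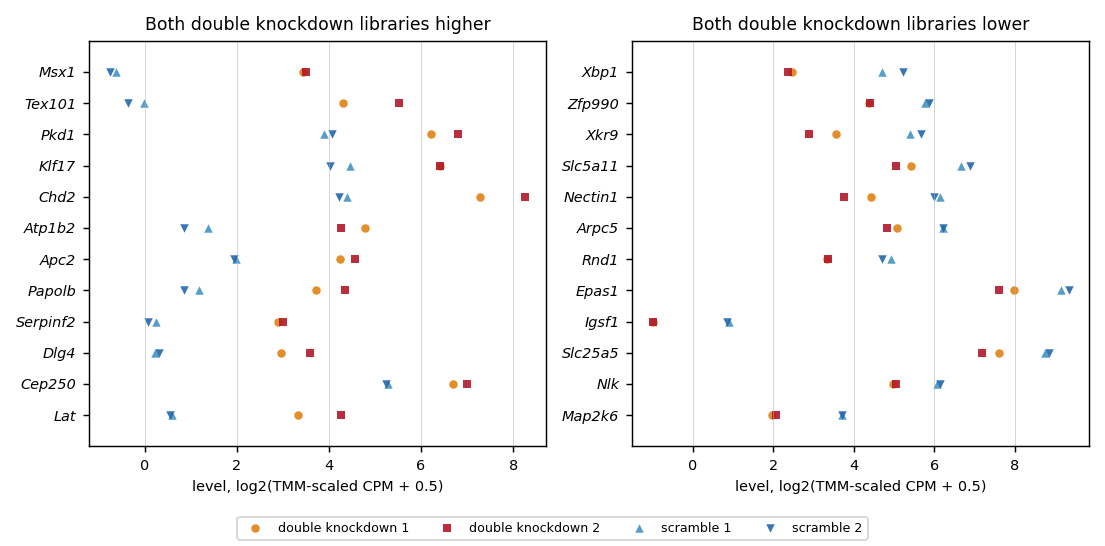
Level of the 12 higher and 12 lower genes named by smallest p in each morula library, as log2(TMM-scaled CPM + 0.5) on the x axis with 1 symbol per library. None passed the test (edgeR adjusted p = 0.227 for each). Both DKD-labelled libraries lie on one side of both scramble libraries in every row because the genes were chosen so. The rows run from 10.31 and 10.77 against at most 0.1499 CPM for Msx1 to 0 against 1.282 and 1.37 CPM for Igsf1.

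Gene lists were described by their counts and by their median log2 fold change, which was 0.0192 over all 22142 genes tested. No list had a member called by edgeR. Germ line and meiosis genes were the list with most calls by DESeq2, with 7 of 20 higher and 0 lower, beside 2.89% and 0.677% over all genes. Their median log2 fold change was 1.21, and that of DKD 1 alone against the mean of scramble was 0.554 and that of DKD 2 alone 1.55. Ddx4, the germ cell RNA helicase VASA, was at 41.49, 91.82, 10.07 and 12.89 CPM. Taf7l, a germ cell form of a TFIID subunit, was at 2.207, 22.69, 0.1499 and 0.2746 CPM, and Meioc, a meiosis factor, at 7.489, 31.84, 2.248 and 2.35 CPM. In all 3, DKD 1 lay between scramble and DKD 2. Groups did not overlap in 15 of the 20 genes with the DKD-labelled libraries higher, and in 2, Rec8 and Tuba3a, with them lower, beside 28.9% and 28.5% of all genes.

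Genes of the 2C stage had a median log2 fold change of 1.51 over 33 tested members, but this rested on DKD 2. Their median was -0.166 in DKD 1 against the scramble mean and 2.16 in DKD 2, and 21 of the 33 were at least 2-fold higher in DKD 2 than in DKD 1. DESeq2 called 3 higher and 1 lower, beside 2.89% and 0.677% of all genes. Spz1, a transcription factor gene, was at 14.48, 40.02, 1.113 and 1.694 CPM, and is one of 2 members in which both DKD-labelled libraries were at least 2-fold above scramble, as in 2.18% of all genes. Tdpoz2 was at 16.83, 20.38, 43.02 and 39.39 CPM, lower in both. Dppa2, a 2C factor that is still read in morulae, was at 386.6, 192.9, 491.7 and 546.7 CPM. Of the 8 other Obox homeobox genes, Obox8 was at 32.28, 70.31, 7.429 and 4.76 CPM, with both DKD-labelled libraries above scramble. Obox3 was at 0.1424, 27.04, 0.2141 and 0.5798 CPM, high in DKD 2 alone. Obox6 and Crxos, the members most abundant here, were lower in both: Crxos was at 617.3, 322.7, 818.5 and 857 CPM. Reads shared between Obox, Usp17l or Tdpoz copies were discarded, so the levels of single copies are uncertain.

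Oocyte and egg transcripts had a median log2 fold change of 1.05 over 40 members, and in 25 of them both DKD-labelled libraries were above both scramble libraries, against 28.9% of all genes. DESeq2 called 1, Dazl, higher and 1, Khdc3, lower, beside 2.89% and 0.677% of all genes. Dazl, an RNA-binding protein of germ cells, was at 14.49, 11.83, 3.136 and 4.257 CPM. Gdf9, a growth factor secreted by the oocyte, was at 16.07, 29.12, 13.53 and 9.582 CPM, and Zp2, a zona pellucida protein, at 9.853, 22.16, 6.947 and 6.652 CPM. These are small differences in DKD 1 and larger ones in DKD 2, and the median of the list was 0.31 in DKD 1 and 1.32 in DKD 2. Khdc3, a member of the subcortical maternal complex, was at 118.2, 67.05, 281.8 and 283.2 CPM. The list includes genes that morulae read themselves: Khdc3 was at 2.01904 and 1.68488 CPM in scramble 2C-embryos, in the table normalised separately.

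Pluripotency factors were below the median of all genes, at -0.515 over 27 members, with -0.246 in DKD 1 and -1.1 in DKD 2. In 14 of them both DKD-labelled libraries were below both scramble libraries, and in 3 above, against 28.5% and 28.9% of all genes. Dppa5a was at 162.1, 94.09, 242.5 and 238.1 CPM. Klf17, named above, was the exception that DESeq2 called higher. Trophectoderm factors had a median of -0.175 over 21 members, which turned to 0.08 when library size alone was used. Gata3 was at 79.55, 36.1, 108.7 and 147.8 CPM, while Hand1 was at 136.7, 161.6, 148.1 and 137.1 CPM and did not separate the groups. Dppa1 was at 0.7973, 1.013, 4.153 and 5.432 CPM, below scramble by a similar amount in both DKD-labelled libraries.

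Ribosomal protein genes had a median of -0.483 over 85 members, and in 63 of them both DKD-labelled libraries were below both scramble libraries, against 28.5% of all genes. Rpl39 was at 116.2, 85.42, 224.6 and 250.2 CPM, and was 1 of 2 members that DESeq2 called lower, beside 0.677% of all genes. The median was only -0.152 in DKD 1 and was -0.91 in DKD 2. Protein-coding transcripts of the mitochondrial genome had a median of -0.617 over 13 members. With TMM scaling they were alike in both, at -0.606 in DKD 1 and -0.616 in DKD 2. The scramble libraries themselves differed by -0.205 in this list. The TMM factor was 1.006 in DKD 1, 1.22 in DKD 2, and 0.8913 and 0.9146 in scramble, so this likeness depends on the scaling. As a share of gene counts, all mitochondrial genes, including those outside this list, were at 10.2% in DKD 1. They were at 13.5% and 13.1% in scramble 1 and scramble 2, with DKD 2 just below scramble 2. Epithelial keratin, claudin and junction genes had a median of -0.331, with 20 of 32 below scramble in both DKD-labelled libraries, against 28.5% of all genes, and 2 above. Cldn7, a tight junction protein, was at 41.15, 22.1, 84.06 and 74.5 CPM. Genes of apical polarity, compaction and actomyosin went both ways, with 11 of 32 above scramble in both DKD-labelled libraries and 17 below, and a median of -0.201 that turned positive with library size alone. The actins Actb and Actg1 were at 1420, 993.7, 2410 and 2450 CPM and at 588.4, 391, 1052 and 1054 CPM, and DESeq2 called both lower. Acta1, the skeletal muscle actin, was at 0.6834, 3.713, 0.107 and 0 CPM, and DESeq2 called it higher. Atp1b1, a subunit of the sodium pump that drives cavitation, was at 22.13, 14.68, 45.91 and 41.61 CPM, also called lower by DESeq2.

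Stress and death pathways gave no common direction. p53 and the genes it turns on had a median of 0.0618 over 30 members. DESeq2 called no member in either direction, beside 2.89% higher and 0.677% lower over all genes. Of the 37 genes of the BCL2 and caspase list, 12 were above scramble in both DKD-labelled libraries and 14 below, near the 28.9% and 28.5% of all genes. Hrk, a BH3-only gene, was at 1.452, 4.818, 0.08564 and 0.2594 CPM and was called higher by DESeq2. In the integrated stress and unfolded protein response list, with a median of 0.113 over 29 members, Nupr1, a stress-induced chromatin protein, was at 12.79, 38.82, 2.644 and 2.075 CPM. Hsp90b1, a chaperone of the endoplasmic reticulum, was at 141.1, 85.48, 211.9 and 304.8 CPM, on the same side as Xbp1. Interferon response genes had a median of 0.743 over 16 members, with Ddx58, the RNA sensor RIG-I, at 5.553, 9.053, 2.034 and 1.51 CPM, and Irf7 at 2.121, 3.498, 0.5245 and 0.5798 CPM, both called higher by DESeq2. Ifit1 had 0 counts in all 4 libraries, and Isg15, Rsad2 and Usp18 had at most 0.2136 CPM. Repressors of MERVL and 2C genes had a median of -0.00678 over 20 members, with 0 called by DESeq2, beside 2.89% and 0.677% of all genes. Heat shock chaperones had a median of -0.267 over 17 members, with 0.0546 in DKD 1 and -0.516 in DKD 2. Of these chaperones 0 were called by DESeq2, beside the same shares of all genes. Among imprinted genes, with a median of 0.324 over 28 members, Phlda2, a placental growth repressor, was at 19.45, 5.401, 0.8135 and 0.8849 CPM and Cdkn1c, a cell cycle inhibitor, at 8.059, 9.958, 2.098 and 3.006 CPM, both called higher by DESeq2. In Phlda2 it was DKD 1 that lay farther from scramble.

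**Figure D4:**
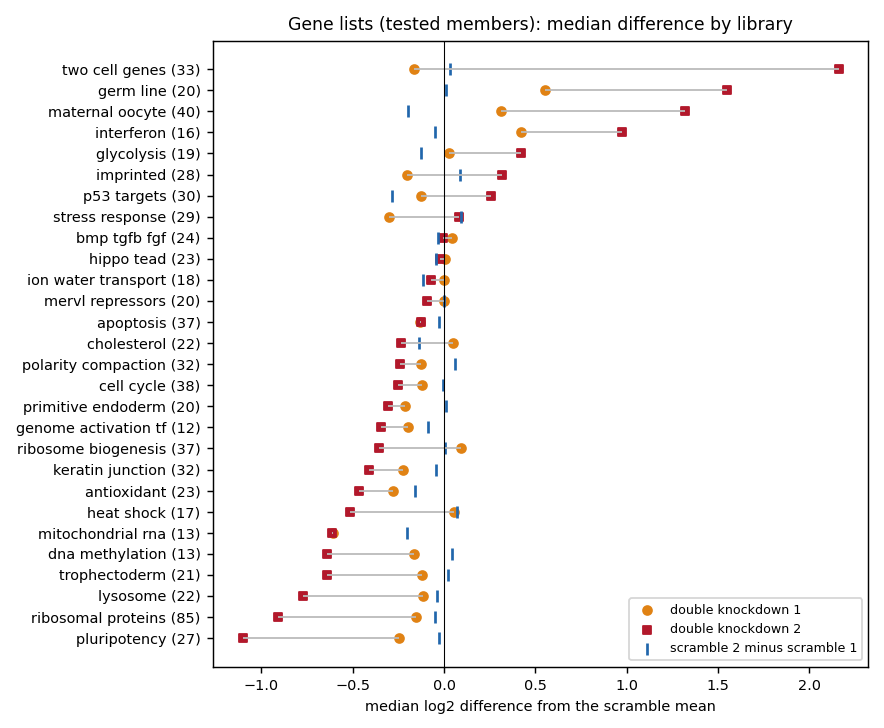
Median log2 difference from the scramble mean over the tested members of each gene list (x axis), for each library labelled double knockdown, with the median difference between the scramble libraries as a tick; the number of tested members stands in brackets, and lists of fewer than 10 are left out. DKD 2 reaches 2.16 for genes of the 2C stage, where DKD 1 is at -0.166, and -1.1 for pluripotency factors, where DKD 1 is at -0.246.

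MERVL RNA was higher in both DKD-labelled libraries, and in this the libraries went together. The internal part of the retrovirus, MERVL-int, was at 156000, 218800, 35370 and 25120 CPM of the repeat counts in DKD 1, DKD 2, scramble 1 and scramble 2. Its LTR, MT2_Mm, was at 10770, 21420, 3056 and 2574 CPM of repeats, and the related MERVL_2A-int at 6004, 8104, 1900 and 1600. The groups did not overlap in any of the 3. The log2 fold changes were 2.63 ± 0.39, 2.52 ± 0.39 and 2.01 ± 0.23 (SE, n = 2 per group). The edgeR adjusted p was 0.146 for MERVL-int, and DESeq2 gave an adjusted p of 4.31e-17. The older MT2 LTRs (MT2A, MT2B, MT2B1, MT2B2 and MT2C_Mm) had log2 fold changes from -0.57 to 0.01. On the scale of the gene counts, all MERVL names together were at 20190 CPM in DKD 1, 52140 in DKD 2, 5786 in scramble 1 and 5399 in scramble 2. DKD 1 thus had high MERVL RNA while its Zscan4 copies were below scramble.

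**Figure D5:**
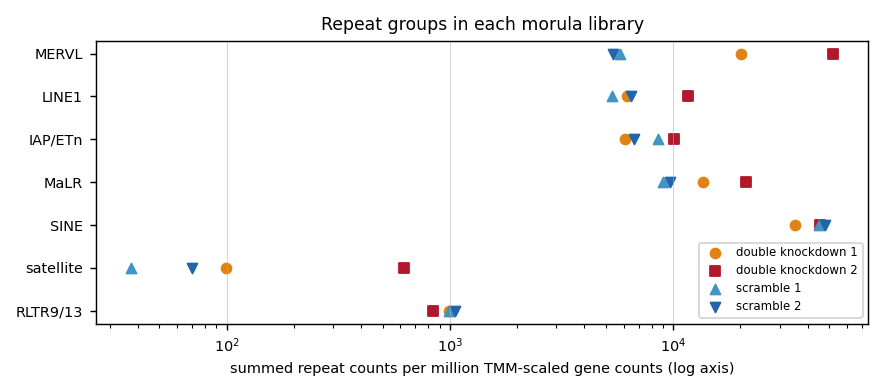
Summed counts of 7 repeat groups in each morula library, as CPM of TMM-scaled gene counts, on a logarithmic x axis with 1 symbol per library. Both DKD-labelled libraries exceed scramble for MERVL (20190 and 52140 against 5786 and 5399), MaLR elements and satellites, while SINEs are at 35250 to 47890 in all 4 libraries.

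Over all repeat names, edgeR called 0 of 1052 (0.0% in either direction), with a smallest adjusted p of 0.0622 and 155 names at an unadjusted p under 0.05. DESeq2 called 20 names higher (1.9%) and 1 lower (0.0951%), and the joint fit 23 (2.19%) and 2 (0.19%). Between the DKD-labelled libraries, 60 names (5.7%) were at least 2-fold higher in DKD 2 and 61 (5.8%) at least 2-fold lower. In 17 names (1.62%) both DKD-labelled libraries were at least 2-fold above scramble, and in 4 (0.38%) at least 2-fold below. MT-int, from the MaLR class of LTR elements that is abundant in oocytes, had the smallest adjusted p, and was at 936.7, 864.7, 332.8 and 317.4 CPM of repeats. MTA_Mm-int, of the same class, was at 31820, 26610, 11180 and 9357. In both elements DKD 1 was slightly above DKD 2 on this scale of repeat counts, unlike MERVL. On the scale of the gene counts, all MaLR names together were at 13570 CPM in DKD 1 and 21280 in DKD 2. That is the same order as for MERVL, so the order of the DKD-labelled libraries depended on the scaling. IAP1-MM_LTR was at 48.8, 69.36, 17.78 and 14.35, and RLTR1 at 14.34, 16.52, 3.163 and 2.772. The LINE-1 fragment L1MEd was lower, at 578.7, 684.1, 1353 and 1348. In 18 of 22 SINE names both DKD-labelled libraries were below both scramble libraries, and in 5 of 6 young LINE-1 names above, beside 26.0% and 25.7% of all names. These are shares of the repeat counts, so a large MERVL share bears on how other names are scaled. With the scaling of the gene table the median of all repeat names moved up by 0.194, and 8 names were at least 2-fold above and 1 below.

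The effect of the same ASO mix in 2C-embryos, which have their own scramble libraries, was set beside these genes. Of the 483 genes in which both DKD-labelled morula libraries were at least 2-fold above scramble, 82 (17%) were called higher in double knockdown 2C-embryos and 4 lower, beside 3.44% and 0.763% over all tested genes. Those 82 are 10.8% of the 762 tested genes called higher at the 2C stage. Of the 122 lower genes, 5 were called higher in 2C-embryos and 2 lower. Chd2 and Tex101 were among the genes higher at both stages, with log2 fold changes in 2C-embryos of 2.87 and 4.29. MERVL-int went in opposite directions, with a log2 fold change of -1.17 in 2C-embryos and 2.64 in morulae in the joint fit. So did the list of oocyte and egg transcripts, whose median in 2C-embryos was -0.603, and that of 2C genes, at -1.06, but for 2C genes the opposite direction was that of DKD 2 alone, since the median of DKD 1 was -0.166. The difference between the stages passed the test of the interaction for 14 of the 40 oocyte genes and 7 of the 33 2C genes in the upward direction, beside 2.97% of all genes, and for 1 member of each list downward, beside 3.42%. Over all repeat names the same test called 29 (2.76%) upward and 3 (0.285%) downward.

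CUT&RUN peaks of FLAG-tagged OBOX4 and DUX in mouse embryonic stem cells were looked up within 3000 bases of the start sites. An OBOX4 peak seen in at least 2 of 3 replicates lay near 32.4% of all tested genes, 20.9% of the 483 higher genes (101; 95% Wilson interval 17.5% to 24.8%) and 31.1% of the 122 lower genes (38; 23.6% to 39.8%). Of the genes that DESeq2 called, it lay near 22.8% of the 640 higher (19.7% to 26.2%) and 44.0% of the 150 lower (36.3% to 52.0%). A DUX peak lay near 1.47% of all tested genes, 3.11% of the higher genes (15; 1.89% to 5.06%) and 0 of the 122 lower genes, where the Wilson interval reaches 3.05%. Among the named genes, OBOX4 peaks lay near Chd2, Pkd1, Apc2, Cep250, Xbp1, Epas1, Slc25a5, Slc5a11, Arpc5, Rnd1, Nlk and Map2k6, and no DUX peak lay near any of the 24. The sets also differed in level, and the part of this in the shares was not tested: the median scramble level was 0.771 CPM in the higher genes, 8.84 CPM in the lower genes and 2.33 CPM in all tested genes. It was 0.917 CPM in the genes that DESeq2 called higher and 28.7 CPM in those it called lower.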

How the data were processed

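RNA-seq was analysed for 4 morula libraries, with 10 2C-embryo libraries injected with ASOs beside them. Per the labels and methods, the authors trimmed reads with fastp (0.23.2), mapped them on GRCm38.p6 with STAR (2.7.9a), and assigned reads to genes using featureCounts (2.0.1). The deposited gene values are raw counts, with multi-mapping reads discarded; whether counting used the strand is not given in the sources used here, so overlapping genes are uncertain. The deposited repeat values are expected counts, with multi-mapping reads split into fractions over mm10 RepeatMasker names. For CUT&RUN, the authors called peaks per replicate with MACS3 (3.0.0a6), and the deposited enrichment column is a ratio (fold enrichment), of which only the positions were used here.

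Expected counts were rounded. The gene table and the repeat table each had an edgeR fit of their own (4.0.16; filterByExpr, TMM, quasi-likelihood test) in R (4.3.3). A call needed an adjusted p (Benjamini-Hochberg) no higher than 0.01 and a log2 fold change of 1 or more either way. DESeq2 (1.42.0) was an alternative. Differences of single libraries are on the log2(CPM + 0.5) scale. Of 55487 gene identifiers, 55141 matched a symbol. ASO sequences were searched in the GRCm38 assembly and GENCODE transcripts for exact matches. Intervals of shares are 95% Wilson intervals, and with the count floors they cover counting error only.

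Named genes were, in each direction, 12 called genes of largest fold change with a mean count of at least 20, groups not overlapping and no clone name, filled by smallest p where fewer were called; the 4 members of smallest p in each of 34 lists; up to 5 repeats each way; and the 10 genes each way that differed most between the DKD-labelled libraries. Genes named outside this rule (Obox4-ps35, AW822073, Tfcp2l1, Zp2, Dppa2, Obox3, Obox6, Crxos, Hand1, Rec8, Tuba3a, MT2_Mm, MTA_Mm-int and the interferon genes near 0) were chosen after their values were seen. The members and lists were chosen with earlier results of these data known. In the remaining lists (Hippo, antioxidant, ribosome assembly, cell cycle, glycolysis, cholesterol, lysosome, DNA methylation, genome activation factors, primitive endoderm, ion transport, FGF and BMP signals), medians ran from -0.462 (lysosome) to 0.251 (glycolysis).

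On simulated counts with the spread of these morula libraries, edgeR found 1.54%, 25.8% and 53.2% of genes set to change 2-, 4- and 8-fold. It called 7 of 20701 unchanged genes. DESeq2 found 7.69%, 46.8% and 69.4%, and called 28 unchanged genes. The simulation gave both groups the same spread, whereas the DKD-labelled libraries differed from each other far more than the scramble libraries did. These shares may therefore not hold for the real counts.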

Additional observations from a re-analysis of the deposited data

Results flagged for a closer look

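The effect of the ASO mix was compared between morulae and 2C-embryos in the joint edgeR fit, and named genes and repeats are listed here where the interaction term passed the test. Many were named for their morula difference, which is itself part of the interaction. The joint fit took its spread also from 10 2C-embryo libraries. DKD 1 and DKD 2 differed at least 2-fold in 18.2% of genes and the scramble morulae in 0.601%, so its p-values may be too small. Values are the log2 fold change in morulae minus that in 2C-embryos, with the adjusted p of the interaction. Msx1 differed by 6.536 (adjusted p = 2.52e-05) with -0.3848 in 2C-embryos, Klf17 by 2.332 (0.000286), Papolb by 2.495 (0.000966) and Cep250 by 1.05 (0.00327). Atp1b2 was higher at both stages, with a difference of 2.298 (0.00952).

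Lower values in morulae stood against higher or flat ones in 2C-embryos for Xbp1, at -4.431 (adjusted p = 0.000469) with 1.521 in 2C-embryos, Slc5a11, at -3.328 (0.000469) with 1.57, and Epas1, at -2.58 (0.00135) with 0.9251. Xkr9 differed by -3.016 (0.00414), Rnd1 by -2.146 (0.00126), Nectin1 by -1.9 (0.00744), Map2k6 by -1.894 (0.00224), Arpc5 by -1.543 (0.00393), Zfp990 by -1.336 (0.00269) and Nlk by -1.002 (0.00261). The value of Igsf1, -11.15 (0.00241), rests on 0 counts in both DKD-labelled libraries and depends on the prior count of the fit.

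Of the other genes given by library, Obox4-ps35 differed by 4.895 (adjusted p = 2.52e-05) with -0.5054 in 2C-embryos, Dazl by 2.947 (0.000293) with -1.325, Spz1 by 3.819 (0.000729), Phlda2 by 4.011 (0.00337), Mllt3 by 3.429 (0.005), Ddx4 by 2.324 (0.00218), Ddx58 by 2.054 (0.00187), Obox8 by 2.024 (0.00772) and Sod1 by 1.222 (0.0026). Downward, Tead4 differed by -2.701 (adjusted p = 0.000939) with 2.37 in 2C-embryos, Xist by -4.509 (0.00286) with 2.161, Cldn7 by -2.917 (0.00334) with 1.397, Khdc3 by -2.209 (0.00905), Ebp by -2.081 (0.0031), Gpx4 by -1.847 (0.00276), Rpl39 by -1.68 (0.00533), Dppa5a by -1.668 (0.00969) and Ccnd3 by -1.48 (0.00351). The value of Zscan4e, 11.54 (0.00936), rests on DKD 2, since DKD 1 had 0 counts.

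Among repeats, MERVL-int differed by 3.801 (adjusted p = 0.000176), with -1.166 in 2C-embryos, and MERVL_2A-int by 3.066 (0.000175), with -1.05. MT-int differed by 1.785 (0.000122) and RLTR1 by 2.11 (0.00222). In 2C-embryos MERVL-int was at 132238 and 157123 CPM of repeat counts in the double knockdown libraries and at 343541 and 297404 in the scramble libraries, so the groups did not overlap at either stage and their order was opposite. The 2C and morula tables each have their own scramble libraries.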

How the results depend on the processing

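The edgeR test called 0 genes also with DESeq2 size factors, with library size alone, with a mean of at least 20 counts and at an adjusted p of 0.05. It called 1281 genes with no filter on low counts, where the prior degrees of freedom became infinite in place of 3.56, and 1543 in the joint fit with 2C-embryos. DESeq2, which gave no adjusted p for 3005 genes, called 790 genes, 4303 without DKD 1 and 567 without DKD 2. Leaving out 1 library, edgeR called from 54 (without scramble 2) to 5790 (without DKD 1), with 71 without scramble 1 and 907 without DKD 2. Repeat calls numbered 21 by DESeq2 (75 without DKD 1, 15 without DKD 2), 25 in the joint fit, 4 with the scaling of the gene table, and from 0 to 8 (without DKD 1) with 1 library left out, with 1 without scramble 2. Members of lists were called 42 times by DESeq2, 72 in the joint fit, and from 9 (without scramble 2) to 296 (without DKD 1) with 1 library left out.

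Genes at least 2-fold apart numbered from 618 to 3006 higher and from 220 to 1896 lower with 1 library left out, the larger count in each case without DKD 1, against 483 and 122. With library size alone 53 were lower. Repeats numbered from 24 to 69 higher and from 7 to 41 lower, and 8 and 1 with the scaling of the gene table, against 17 and 4. The share of higher genes near an OBOX4 peak was 16.4% with peaks of all 3 replicates and 17% within 1000 bases, beside 25.6% and 27.5% of all genes. None of the 12 higher and 12 lower genes or the 10 repeats named by smallest p reversed in direction under the alternatives in which it was fitted. They were chosen with groups not overlapping, so this outcome was largely set by the choice. Among the other genes given by library, 11 reversed with DKD 2 left out, where the log2 fold change stood at one end of its range over the fits without 1 library. The ranges from that fit to the other end were -1.233 to 6.522 for Zscan4d, -6.404 (on 0 counts in DKD 1) to 8.854 for Zscan4e, -3.934 to 5.123 for Usp17le, -0.7645 to 2.27 for Tcstv3, -0.4267 to 1.198 for Krt18, -0.2914 to 2.309 for Btg4, -1.453 to 6.069 for Obox3, -3.496 to 0.942 for Rhox5, -0.0607 to 0.09348 for Hand1, 0.5254 to -2.341 for Ddx3y and 0.1161 to -0.4964 for Tead4. Tead4 was also reversed with library size alone (0.1539), Hand1 in the joint fit (-0.1745) and without scramble 2 (-0.02564), and Rhox5 with the replicate block (-1.164), in the joint fit (-0.2494) and without scramble 1 (-0.2037).

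Same-numbered libraries did not deviate together (correlation of deviations 0.00267 over 22142 genes). With 2 libraries per group this is a single correlation, which cannot decide whether the libraries were paired. With the replicate block edgeR called 0 genes and 0 repeats. Medians of all genes moved by 0.3 with library size alone, where 65.4% of genes were higher in place of 51%, and by -0.228 in the joint fit. With library size alone the medians of trophectoderm, primitive endoderm, polarity, cell cycle, apoptosis, DNA methylation, cholesterol, ribosome assembly, genome activation, ion transport and MERVL repressor lists turned positive. Without DKD 2 the median of 2C genes was -0.27 and that of oocyte genes 0.38. The alternatives to the 2-fold counts, and DESeq2 without a DKD-labelled library, were chosen after seeing the data.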

Other observations

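Some genes of other pathways stood apart in both DKD-labelled libraries. Gata4, a primitive endoderm factor that is also read in 2C-embryos, was at 34.4, 60.99, 18.08 and 11.81 CPM in DKD 1, DKD 2, scramble 1 and scramble 2, opposite to Gata6. Apoe, a lipid carrier, was at 32.18, 56.07, 18.63 and 13.98 CPM. In glycolysis, Ldha was at 23.61, 40.98, 10.63 and 5.874 CPM and Aldoc at 1.765, 6.414, 0.1713 and 0.3357 CPM, while Gapdh was at 61.28, 70.89, 168.7 and 96 CPM. Gpx4, the peroxidase that protects membrane lipids, was at 147.4, 112.8, 277.6 and 255.3 CPM, while Sod1 was at 86.55, 102.7, 57.49 and 60.65 CPM. Ccnd3, a G1 cyclin, was at 79.95, 60.98, 154.3 and 166.9 CPM, and Ebp, an enzyme of cholesterol synthesis, at 14.01, 15.25, 28.24 and 35.56 CPM. DESeq2 called Gata4, Apoe, Ldha and Aldoc higher and Gpx4, Ccnd3 and Ebp lower. None was called by edgeR.

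The 483 higher and 122 lower genes had median exon lengths of 3310 and 2661 bases, against 3176 in all tested genes, and 3.52% and 8.2% of them were on the X chromosome, against 3.39%. The 13 tested genes of the Y chromosome had a median log2 difference from scramble of 0.718 in DKD 1 and -0.664 in DKD 2, and the scramble libraries differed by -0.455.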
